A study of Homo sapiens with 6 samples.

Results

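Integrins and the proteins that gather on their cytoplasmic side at focal adhesions were followed as a group of 35 genes, 22 integrin subunits and 13 focal adhesion proteins, chosen by name. Of these, 34 were among the 19775 genes with a probe set (the group of probes that reads a transcript on the array) assigned to 1 gene symbol. ITGB6, the beta subunit of an epithelial fibronectin receptor, is listed only on probe sets shared with a second symbol and was not analysed here. Each gene was read by its probe set of highest mean over all 6 arrays, and the members' other probe sets are given beside it, 110 probe sets in all. The cells were human umbilical vein endothelial cells (HUVECs), primary cells of the vein wall grown in endothelial medium with serum and growth factors. They were transfected either with an ANRIL-specific siRNA or with a control scrambled siRNA, and both groups received the same transfection reagent. Each group had 3 samples, with 1 array per sample. The single comparison of the design asks which genes lie downstream of ANRIL, a long noncoding RNA of the CDKN2A and CDKN2B locus.

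Integrins are receptors made of 1 alpha and 1 beta subunit that bind the extracellular matrix outside the cell. Inside, talin and kindlin bind the beta tail and switch the receptor to its active form, and vinculin, zyxin and the complex of ILK, PINCH and parvin join it to actin. The kinases FAK (PTK2) and SRC and the adaptors paxillin (PXN) and p130Cas (BCAR1) pass on the signal. In endothelium these receptors hold the cell to its basement membrane and serve migration, sprouting and the sensing of flow.

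The only agent that differed between the groups was the siRNA, and its strands are shown because every difference below is a contrast against this 1 sequence. The ANRIL-specific duplex, as the labels give it and written 5′ to 3′ without capitals, had a sense strand of 25 bases and an antisense strand of 27.
sense strand: ggauaugugccaugaguaagaauaa
antisense strand: uuauucuuacucauggcacauauccau
No sequence of the scrambled control was used here.

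All values are log2 intensities as deposited by the submitters, and a difference is ANRIL siRNA minus control siRNA. A gene was said to pass when its limma p, adjusted over all genes by the Benjamini-Hochberg method, was under 0.05. The probe set for ANRIL (CDKN2B-AS1) lay at percentile 4.62 of the genes' signal. It read 4.08, 4.05 and 3.95 on the control arrays and 3.69, 4.05 and 4.05 on the ANRIL siRNA arrays, so these arrays do not show whether the target was lowered. The endothelial identity of the cells was seen in PECAM1, CDH5 and VWF, which lay at percentiles 97.4 to 99.2. All 13 endothelial markers examined were above the median signal, and their summed log2 level was 151 to 152 on the control arrays and 149 to 150 with ANRIL siRNA. All 13 lay below 0, by a median of −0.19, and all 13 were in deciles 8 to 10 of mean signal (background there: 85% of genes). After cyclic loess 11 of 13 lay below 0 (median −0.11, background: 46.3% of all genes). The labels do not say whether the 3 samples of a group came from separate donors or cultures, so the p-values measure the spread between these samples, which may be technical. Bright genes in general were lower with ANRIL siRNA and dim ones higher: 85% of the genes in deciles 8 to 10 of mean signal lay below 0, and 28.7% of those in deciles 1 to 5. Over all probe sets, the SD of the log2 values was 2.26 to 2.29 on the control arrays and 2.21 to 2.24 on the ANRIL siRNA arrays. The signal of ACTB at its 3′ end exceeded that at its 5′ end by 0.54 ± 0.05 (SD, n = 3) on the control arrays and by 0.72 ± 0.13 with ANRIL siRNA (exact permutation test, two-sided, p = 0.2). The same measure for GAPDH was −0.001 ± 0.012 and 0.058 ± 0.030 (p = 0.1 by that exact test, the smallest p this design allows), with the groups fully apart. The part of these shifts in the differences below was not tested, and each member's value with the signal trend removed by cyclic loess is given beside it or with the other cyclic loess values.

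Most integrin and focal adhesion genes lay slightly lower with ANRIL siRNA, but no member passed. Of the 34 measured members 25 lay below 0 (background: 51.4% of all genes), with a median difference of −0.11 against −0.005 over all genes, and single members ranged from −0.30 for LIMS1 to 0.18 for ITGB2. With limma, 0 members passed in either direction (background: 0% of all genes), with adjusted p-values of 0.147 to 0.987. At an unadjusted p under 0.05 there were 10 members lower (background: 8.16% of all genes) and 1 higher (background: 9.83%). The groups were fully apart, with no overlap of their 3 values, for 10 members lower (background: 12.8%) and 2 higher (background: 10.6%). Most members are bright, and among genes at or above the median signal the backgrounds are higher. There, 20 of 25 members lay below 0 (background: 74%), 8 had an unadjusted p under 0.05 and were lower (background: 14%), and 9 were lower without overlap (background: 23.2%). Of the 9 members below the median signal, 5 lay below 0 (background: 28.7%), with a median of −0.04 against 0.06 over all genes there. In deciles 8 to 10 alone 14 of 18 members lay below 0, which is no larger a share than the 85% of all genes there. The median difference of these 18 was −0.115, against −0.071 over all genes there. Set against the 500 genes nearest to it in mean signal, a member lay below their median in 23 of 34 cases, and the median distance from it over all 34 members was −0.05.

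**Figure D1:**
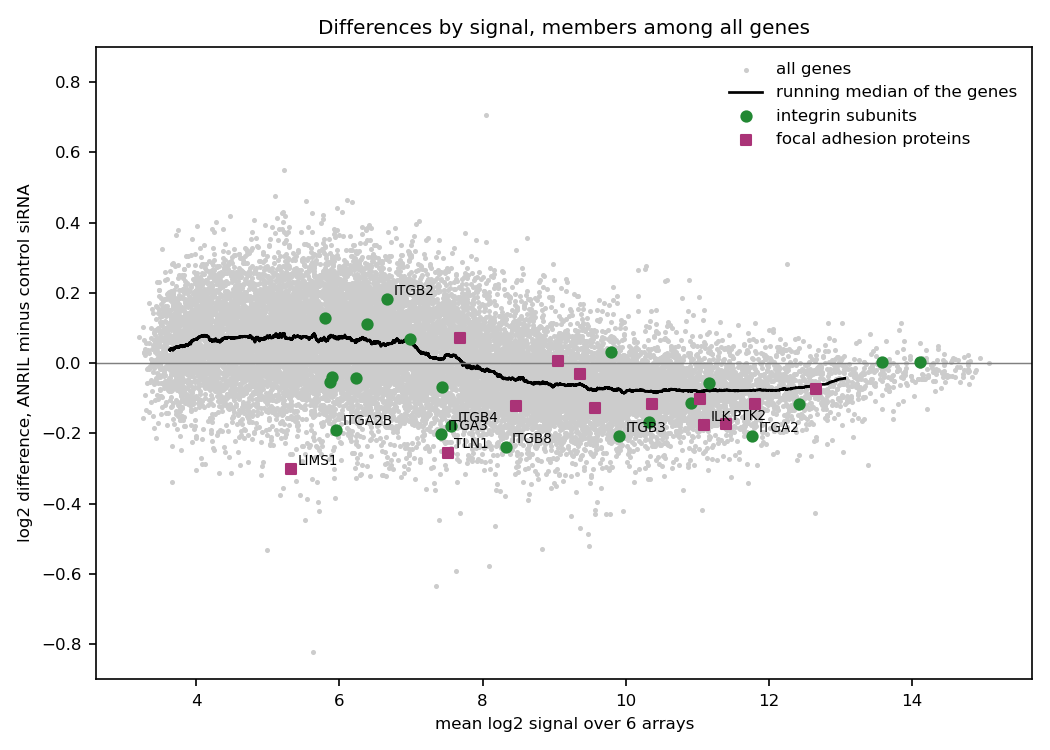
Log2 difference (ANRIL siRNA minus control siRNA, vertical axis) against mean log2 signal over 6 arrays (horizontal axis) for all 19775 genes in grey, with integrin subunits as green circles, focal adhesion proteins as purple squares and the running median of the genes as a black line. The line lies above 0 among dim genes and below 0 among bright ones, most bright members lie close to it, and the 11 members with an unadjusted p under 0.05 are named.

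Among the alpha subunits that pair with beta 1 to bind collagen, ITGA2 stood apart between the groups and the others did not. ITGA2 read 11.95, 11.90 and 11.77 on the control arrays and 11.61, 11.69 and 11.69 on the ANRIL siRNA arrays. All ANRIL siRNA arrays lay below all control arrays, and the difference was −0.21 ± 0.07 (SE, n = 3 per group, 1.15-fold lower, limma adjusted p = 0.181). The 500 genes of like signal had a median of −0.08, and the dimmer ITGA2 probe set differed by −0.15 ± 0.08. With a prior variance that follows the signal (limma's trended robust prior), where 2.15% of all genes passed as lower and 0.582% as higher, ITGA2 fell and was the only member to pass (adjusted p = 0.0233). That call was not made without control replicate 1 (adjusted p = 0.105), without control replicate 2 (0.158) or without ANRIL siRNA replicate 1 (0.129), nor after cyclic loess normalization, which removes the trend with signal (difference −0.13, adjusted p = 0.163 with that prior).

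ITGA10, which binds collagens of cartilage among others, read 9.78, 9.81 and 9.74 on the control arrays and 9.84, 9.79 and 9.80 on the ANRIL siRNA arrays. The groups overlapped and the difference was 0.03 ± 0.06, above the median of −0.07 of genes of like signal, and after cyclic loess it was 0.11 without overlap. ITGA11, a collagen receptor subunit of fibroblasts, read 7.42, 7.58 and 7.39 against 7.42, 7.50 and 7.27. Its groups overlapped too (−0.07 ± 0.08), and its other 2 probe sets differed by −0.03 and −0.04. ITGA1, the subunit of the other widespread collagen receptor, was dim and differed by −0.05 ± 0.07, with all 3 of its probe sets below 0.

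Of the laminin-binding alpha subunits, ITGA3 and ITGA6 lay lower and ITGA7 did not. ITGA3 read 7.47, 7.60 and 7.50 on the control arrays and 7.36, 7.26 and 7.35 on the ANRIL siRNA arrays. The groups did not overlap and the difference was −0.20 ± 0.06 (1.15-fold lower, limma adjusted p = 0.176), where genes of like signal had a median of 0.01. It was −0.20 ± 0.05 after cyclic loess as well (adjusted p = 0.269), and ITGA3 has 1 probe set here. ITGA6, the alpha subunit of the main laminin receptors of endothelium, read 10.46, 10.46 and 10.31 against 10.38, 10.21 and 10.14. These groups overlapped (−0.17 ± 0.08, adjusted p = 0.294), and the difference was −0.09 after cyclic loess. The second ITGA6 probe set, at percentile 85.7 of all probe sets, differed by −0.31 ± 0.08 without overlap, and its p adjusted over all 54613 probe sets was 0.22. ITGA7, best known from muscle, was dim and differed by 0.11 ± 0.10.

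The RGD-binding alpha subunits, which recognise the Arg-Gly-Asp motif of fibronectin and vitronectin, gave small differences at the bright endothelial members. ITGA5, the fibronectin receptor subunit, read 12.46, 12.50 and 12.46 on the control arrays and 12.28, 12.51 and 12.28 on the ANRIL siRNA arrays. ANRIL siRNA replicate 2 lay at the height of the controls and the other arrays of its group below them. The difference was −0.12 ± 0.07 (limma adjusted p = 0.414), and −0.04 after cyclic loess. ITGAV, the common subunit of the vitronectin receptors, read 13.60, 13.53 and 13.60 against 13.59, 13.58 and 13.55. The groups overlapped fully, and the difference of 0.002 had a 95% interval of −0.13 to 0.13. After cyclic loess it was 0.08 without overlap. ITGA2B, the platelet fibrinogen receptor subunit, was dim and read 6.18, 5.92 and 6.05 against 5.92, 5.73 and 5.93. The difference was −0.19 ± 0.08 (adjusted p = 0.266), but 2 of its 4 probe sets lay above 0. Of 6 platelet markers 2 lay below 0 (background: 51.4% of all genes). These were 2 of the 3 at or above the median signal (background there: 74%), and 0 of the 3 dimmer ones did (background there: 28.7%). The summed log2 level of all 6 was 39.0 to 39.7 on the control arrays and 39.3 to 39.4 with ANRIL siRNA. ITGA8, a subunit of mesenchymal cells, was dim and differed by 0.13 ± 0.07.

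The remaining alpha subunits pair with beta 1 or beta 7. ITGAE, the subunit of the E-cadherin receptor of intraepithelial lymphocytes, gave a bright signal on these arrays and read 11.16, 11.22 and 11.20 on the control arrays and 11.05, 11.20 and 11.15 on the ANRIL siRNA arrays. The groups overlapped (−0.06 ± 0.06), and the sign turned after cyclic loess (0.03). ITGA4, which binds VCAM1 and fibronectin, differed by 0.07 ± 0.06 without overlap, while its other 3 probe sets differed by −0.05 to −0.22. ITGA9, a receptor subunit of lymphatic endothelium, was at −0.04 ± 0.08 by its brightest probe set, while the next gave 0.29 ± 0.09 (adjusted p over all probe sets 0.242).

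**Figure D2:**
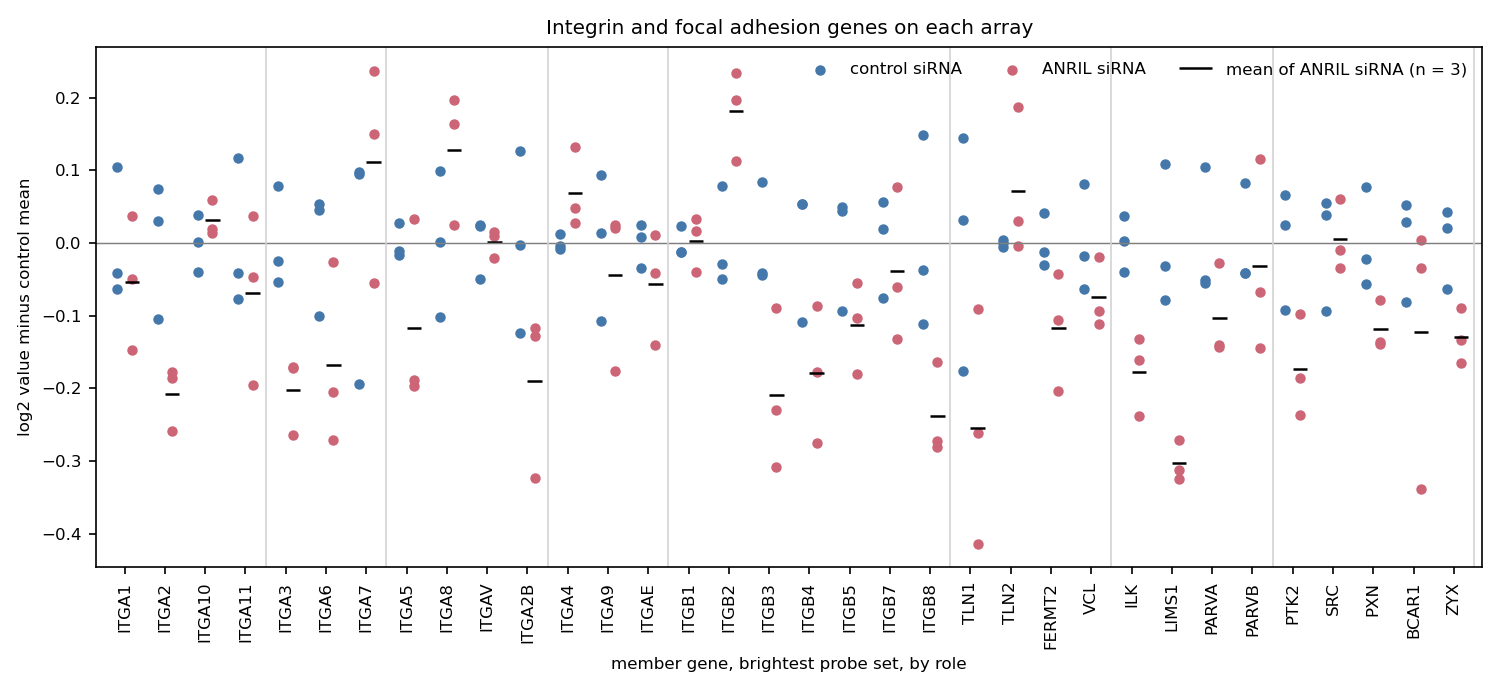
Log2 value minus the control mean (vertical axis) of the 34 measured members at their brightest probe set (horizontal axis, ordered by role, with vertical lines between roles), with control arrays as blue points, ANRIL siRNA arrays as red points and the mean of 3 ANRIL siRNA arrays as a black bar. The red points of ITGA2, ITGA3, ITGB3, ITGB8, FERMT2, ILK, LIMS1, PTK2, PXN and ZYX all lie below the blue ones, and those of ITGA4 and ITGB2 all lie above.

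Among the beta subunits, the common beta 1 chain was near 0 at its brightest probe set, and ITGB3 and ITGB8 lay lower without overlap. ITGB1, the partner of most alpha subunits, read 14.12, 14.09 and 14.09 on the control arrays and 14.13, 14.06 and 14.12 on the ANRIL siRNA arrays. The groups overlapped, and the difference of 0.003 had a 95% interval of −0.12 to 0.13, and it was 0.07 after cyclic loess. Its next 2 probe sets, almost as bright in rank, differed by −0.10 ± 0.06 and −0.09 ± 0.07 (adjusted p over all probe sets 0.455 and 0.525). ITGB3, the beta chain of the vitronectin and platelet fibrinogen receptors, read 9.97, 9.97 and 10.10 against 9.78, 9.70 and 9.92. The difference was −0.21 ± 0.07 (1.16-fold lower, limma adjusted p = 0.199), and −0.13 with overlap after cyclic loess. The other probe sets of ITGB3 did not show it: 4 of 7 lay above 0, those ranked 2 and 3 by signal differed by −0.05 and −0.08, and the brightest whose name does not end in _s_at or _x_at (endings that mark possible shared reads) was at 0.09.

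ITGB8, the beta chain of a receptor that binds latent TGF-beta, read 8.33, 8.59 and 8.40 on the control arrays and 8.16, 8.17 and 8.28 on the ANRIL siRNA arrays. All ANRIL siRNA arrays lay below the controls, and the difference was −0.24 ± 0.08 (1.18-fold lower, limma adjusted p = 0.181). The next ITGB8 probe set was at percentile 34.0 of all probe sets, and 3 of the 5 lay above 0. ITGB5, a further vitronectin receptor chain, read 10.87, 11.01 and 11.00 against 10.86, 10.91 and 10.78. Its groups overlapped (−0.11 ± 0.07, and −0.03 after cyclic loess), and all 4 of its probe sets lay below 0, by −0.004 to −0.11. ITGB4, the laminin receptor chain of hemidesmosomes, read 7.54, 7.70 and 7.70 against 7.47, 7.37 and 7.56. The groups overlapped by 1 control array, the difference was −0.18 ± 0.07 (adjusted p = 0.245), and its 4 dimmer probe sets differed by −0.34 to 0.22.

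The leukocyte beta chain ITGB2, partner of the CD11 subunits, was the member with the highest difference. It read 6.55, 6.53 and 6.66 on the control arrays and 6.77, 6.69 and 6.81 on the ANRIL siRNA arrays, without overlap. The difference was 0.18 ± 0.06 (1.13-fold higher, limma adjusted p = 0.203), at percentile 42.2 of signal, where the 500 genes of like signal had a median of 0.05. The name of this ITGB2 probe set ends in _x_at, which marks possible shared reads, and the other ITGB2 probe sets differed by 0.04 and 0.02. The 4 leukocyte alpha subunits outside the member list, ITGAL, ITGAM, ITGAX and ITGAD, also lay above 0, by 0.04 to 0.22, with ITGAX at 0.20 ± 0.06 and ITGAM at 0.22 ± 0.10 (adjusted p = 0.177 and 0.274), and 0 of 4 passed. All 4 were below the median signal, where 71.3% of all genes lay above 0. Leukocyte markers, ITGAM among them, lay in the same direction: 7 of 8 measured lay above 0 (background: 48.6% of all genes). Of the 7 below the median signal 6 did (background there: 71.3%), and the summed log2 level of all 8 was 45.3 to 45.9 on the control arrays and 46.1 to 47.2 with ANRIL siRNA. The 8 markers lay at percentiles 7.90 to 55.6 of signal, and PTPRC was the 1 below 0 (−0.07 ± 0.09). Whether leukocytes were present was not tested, nor was the part of these markers in the value of ITGB2. In bulk samples, fewer or more cells of a type and less or more RNA per cell cannot be told apart. ITGB7, the other leukocyte beta chain among the members, was dim and differed by −0.04 ± 0.07.

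Of the talins, kindlin 2 and vinculin, talin 1 had the lowest value and talin 2 lay above 0. TLN1, which binds the beta tail, read 7.47, 7.79 and 7.68 on the control arrays and 7.23, 7.56 and 7.39 on the ANRIL siRNA arrays. The groups overlapped through ANRIL siRNA replicate 2, and the difference was −0.26 ± 0.10 (1.19-fold lower, limma adjusted p = 0.228), where genes of like signal had a median of 0.02. Its other probe sets differed by −0.14 and 0.004. TLN2, the second talin, read 7.65, 7.65 and 7.66 against 7.84, 7.68 and 7.65. ANRIL siRNA replicate 1 stood well above the controls and replicate 3 among them (0.07 ± 0.07), and all 3 TLN2 probe sets lay above 0.

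FERMT2, which encodes kindlin 2 and binds the beta tail beside talin, read 11.91, 11.85 and 11.83 on the control arrays and 11.76, 11.82 and 11.66 on the ANRIL siRNA arrays. The groups did not overlap, the difference was −0.12 ± 0.06 (limma adjusted p = 0.354), and all 3 probe sets lay below 0. After cyclic loess it was −0.04 and the groups overlapped. VCL, which encodes vinculin, the protein that reinforces the talin link to actin, read 12.67, 12.77 and 12.63 against 12.58, 12.67 and 12.59. Its groups overlapped (−0.07 ± 0.06), genes of like signal had a median of −0.07, and the difference was 0.003 after cyclic loess.

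All 4 genes of the complex of ILK, PINCH and parvin lay below 0, and ILK and LIMS1 had groups that did not overlap. ILK, the scaffold pseudokinase at the centre of the complex, read 11.14, 11.18 and 11.22 on the control arrays and 10.94, 11.05 and 11.02 on the ANRIL siRNA arrays. The difference was −0.18 ± 0.06 (1.13-fold lower, limma adjusted p = 0.192), and −0.10 after cyclic loess, where the groups still did not overlap. With the trended robust prior ILK was at a limma adjusted p of 0.0502. With the trend alone it passed (0.0457), where 415 of all 19775 genes passed as lower and 107 as higher. With the trended robust prior and 1 array left out, ILK passed only without ANRIL siRNA replicate 2 (0.0167) and was otherwise at 0.084 to 0.246. After cyclic loess with that prior it was at 0.245. LIMS1, which encodes PINCH1, read 5.40, 5.58 and 5.44 against 5.15, 5.20 and 5.16. At −0.30 ± 0.07 (1.23-fold lower, adjusted p = 0.147) this was the lowest difference of any member, and it was −0.37 after cyclic loess (adjusted p = 0.254). The value comes from a dim probe set at percentile 21.2 of the genes' signal, and the other LIMS1 probe sets differed by −0.08 and 0.06. Probe sets that LIMS1 shares with its near copies LIMS3 and LIMS4 were not used, so the level of PINCH1 is uncertain here.

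PARVA, which encodes the widely expressed alpha-parvin, read 11.04, 11.20 and 11.04 on the control arrays and 10.95, 11.06 and 10.95 on the ANRIL siRNA arrays. The groups overlapped by 1 array (−0.10 ± 0.07, limma adjusted p = 0.441, and −0.02 after cyclic loess). The 4 brightest of its 7 probe sets lay below 0, by −0.06 to −0.13, and the 3 dimmest slightly above. PARVB, which encodes beta-parvin, read 9.33, 9.46 and 9.33 against 9.31, 9.49 and 9.23. The groups overlapped and the difference was −0.03 ± 0.08, turning to 0.04 after cyclic loess, although 5 of its 6 probe sets lay below 0 in the deposited values.

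Among the signalling members, FAK, paxillin and zyxin lay lower without overlap in the deposited values, and the groups of all 3 overlapped after cyclic loess. SRC was near 0 at its brightest probe set. PTK2, which encodes FAK, read 11.51, 11.56 and 11.40 on the control arrays and 11.30, 11.39 and 11.25 on the ANRIL siRNA arrays. The difference was −0.17 ± 0.07 (1.13-fold lower, limma adjusted p = 0.229), and the second bright probe set gave −0.14 ± 0.06, also without overlap. After cyclic loess the first was at −0.09 (adjusted p = 0.486) and its groups overlapped. PXN, the scaffold that recruits FAK and vinculin, read 10.40, 10.50 and 10.36 against 10.28, 10.34 and 10.28. It differed by −0.12 ± 0.06 (adjusted p = 0.34) and its second probe set by −0.15 ± 0.07, both without overlap, and the first was at −0.04 after cyclic loess.

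ZYX, which encodes the tension-sensitive actin regulator zyxin, read 9.68, 9.66 and 9.58 on the control arrays and 9.51, 9.55 and 9.48 on the ANRIL siRNA arrays. Its difference was −0.13 ± 0.06 (limma adjusted p = 0.294, and −0.05 after cyclic loess), and its second probe set was at −0.21 ± 0.09 with overlap. BCAR1, the stretch sensor p130Cas, read 8.44, 8.55 and 8.58 against 8.19, 8.53 and 8.49. Here ANRIL siRNA replicate 1 alone lay well below the controls (−0.12 ± 0.09). SRC read 8.96, 9.09 and 9.11 against 9.04, 9.02 and 9.11. The groups overlapped, with a difference of 0.01 and a 95% interval of −0.14 to 0.15.

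**Figure D3:**
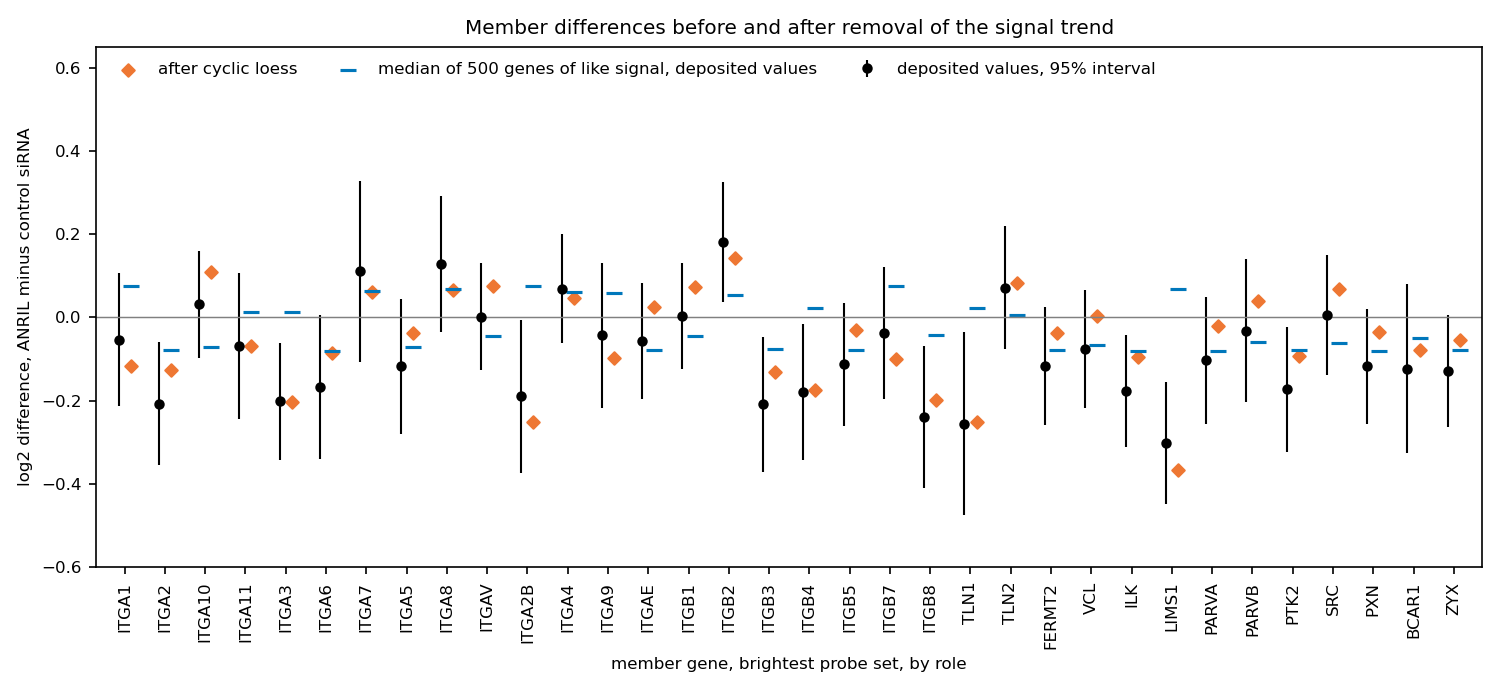
Log2 difference (vertical axis) of each measured member by role (horizontal axis), with black points and 95% intervals for the deposited values (n = 3 per group), orange diamonds for the values after cyclic loess normalization and blue dashes for the median of the 500 genes nearest in mean signal. Bright members such as ITGA5, VCL and PARVA move close to 0 after cyclic loess, while ITGA3, ITGB4, ITGB8, TLN1 and LIMS1 stay between −0.17 and −0.37.

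With the trend between difference and signal removed by cyclic loess, the members' median was −0.05 and 22 of 34 lay below 0 (background: 46.3% of all genes). Again 0 members passed with limma, with the constant prior or with the trended robust prior (background with the latter: 0.379% of all genes lower and 0.298% higher). At an unadjusted p under 0.05 with the constant prior, 6 members were lower (background: 5.88%), namely LIMS1, ITGA3, ITGA2B (−0.25), ITGB8 (−0.20), ITGB4 (−0.17) and TLN1 (−0.25). ITGB2 was the 1 member that was higher (background: 7.51%), at 0.14 ± 0.05. ITGA2, ITGB3, ILK and PTK2, which had an unadjusted p under 0.05 in the deposited values, lay at −0.13, −0.13, −0.10 and −0.09 after cyclic loess and no longer did with the constant prior. With the trended robust prior ITGA2, ILK and PTK2 still did (limma unadjusted p = 0.0084, 0.025 and 0.029), and ITGB3 did not (0.058). In that fit ITGAV, ITGA10 and ITGB1 were higher at that p (limma unadjusted p = 0.024, 0.025 and 0.028), while ITGB2 was not (0.083). The share of all genes at that unadjusted p in that fit is not given here, so these calls cannot be set against a background. Of the members not given with a cyclic loess value so far, ITGA1 (−0.12), ITGA9 (−0.10), ITGB7 (−0.10), ITGA11 (−0.07) and BCAR1 (−0.08) lay below 0, and ITGA4 (0.05), ITGA7 (0.06), ITGA8 (0.06), SRC (0.07) and TLN2 (0.08) above. The array medians of the members also differed within a group: the median deviation from each member's mean over 6 arrays was 0.03, 0.09 and 0.01 on the control arrays and −0.06, −0.008 and −0.05 on the ANRIL siRNA arrays. ANRIL siRNA replicate 2 thus lay nearest to the controls. Without it, 6 members passed as lower with the trended robust prior (ITGA2, ITGA5, TLN1, FERMT2, ILK and PTK2). With all arrays 1 did (background in that fit with all arrays: 2.15% of all genes). There were 2 without control replicate 3 (ITGA2 and PTK2), 2 without ANRIL siRNA replicate 3 (ITGA2 and ITGB3) and 0 without any 1 of the other 3 arrays. The number of all genes passing also moved widely between these fits, as given below with the other processing choices. A share over all genes is not given here for each single fit, so these member counts cannot be read as particular to the members.

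Over all 110 probe sets of the members, 67 lay below 0 (background: 46.1% of all probe sets) and 0 passed (background: 0%), with 15 lower (background: 6.14% of all probe sets) and 6 higher (background: 8.96%) at an unadjusted p under 0.05. The probe sets of 1 gene share its RNA samples and are not replicates. Bright probe sets of a gene tended to share a sign, as for ITGA2, ITGA6, FERMT2, PTK2 and ZYX, where every probe set above percentile 75 of signal lay below 0. Bright genes mostly lay below 0 in general (85% of all genes in deciles 8 to 10), so a shared sign there is not particular to these members. ITGB1 and PARVA were exceptions, ITGB1 with 0.003 at its brightest and −0.10 and −0.09 at the next, and PARVA with 0.015 at its probe set of rank 5.

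**Figure D4:**
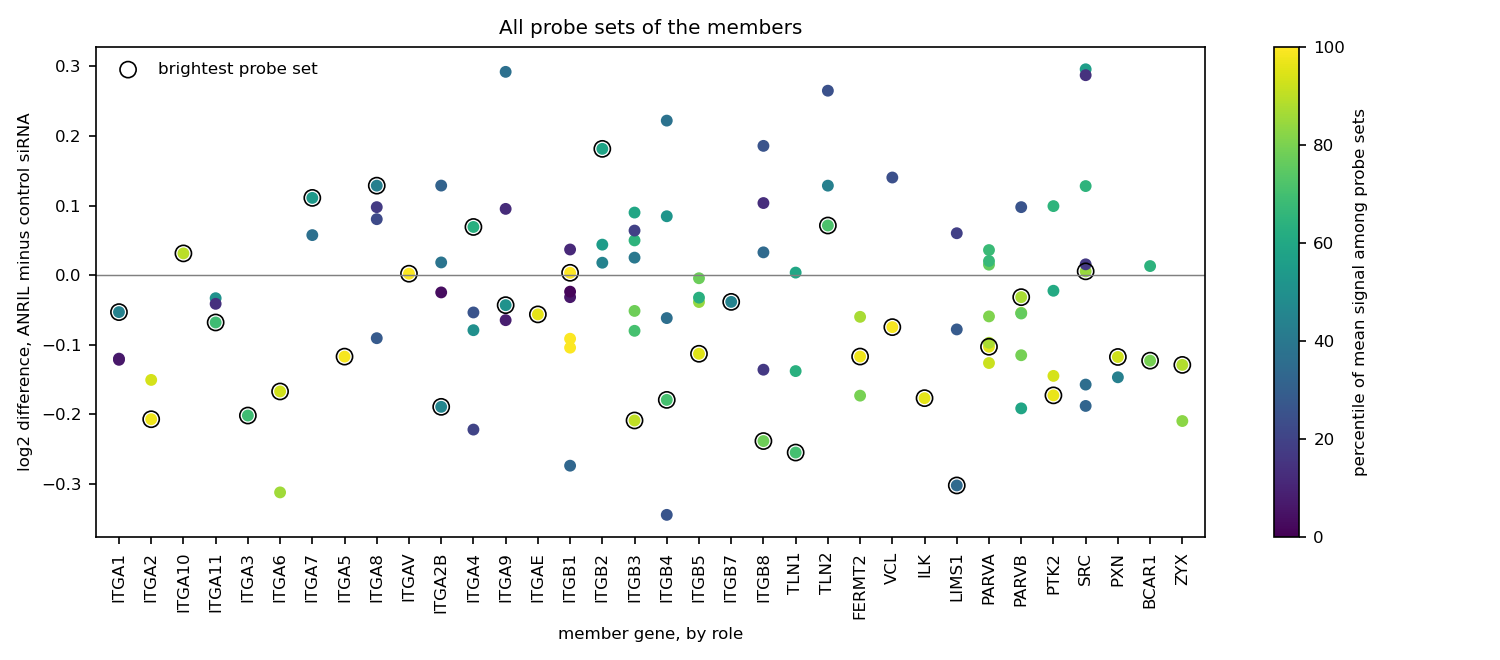
Log2 difference (vertical axis) of each of the 110 probe sets of the 34 measured members (horizontal axis, by role), coloured by percentile of mean signal among all probe sets, with the brightest of each gene circled. Genes such as FERMT2 and ITGA2 have all their probe sets below 0, whereas those of SRC, ITGB4 and ITGA9 spread to both sides, from −0.34 to 0.30.

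Other proteins of focal adhesions, from a list drawn up beside the members, lay mostly below 0, as bright genes did in general. Of 53 measured, 45 lay below 0 (background: 51.4% of all genes), with a median of −0.09. At or above the median signal 44 of 50 did (background: 74%), and in deciles 8 to 10 38 of 42 (85% of all genes there). With limma 0 passed, and at an unadjusted p under 0.05 there were 12 lower (background: 8.16% of all genes) and 0 higher (background: 9.83%). All 12 were among the 50 at or above the median signal (background: 14%). The 5 of smallest p were NEDD9, a relative of p130Cas (−0.25 ± 0.06), VASP, an actin polymerization factor (−0.24 ± 0.06), the endocytic adaptor DAB2 (−0.21 ± 0.06), the LIM protein FHL2 (−0.20 ± 0.06) and the kinase ROCK2, which drives actomyosin contraction (−0.16 ± 0.06). Their adjusted p-values were 0.154 to 0.212 and none of their groups overlapped. With the trended robust prior 4 of the 53 passed as lower (background: 2.15% of all genes). After cyclic loess 33 of 53 lay below 0 (background: 46.3%) and 0 passed with either prior. NEDD9 had only 2 of 5 probe sets below 0.

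Of 33 ligands of these receptors measured, 19 lay below 0 (background: 51.4% of all genes), with a median of −0.07, and 0 passed with limma. At or above the median signal 15 of 23 lay below 0 (background: 74%). At an unadjusted p under 0.05 there were 10 lower (background: 8.16%) and 1 higher (background: 9.83%). Of the 23 at or above the median signal, 8 were lower at that p (background: 14%). The 5 of smallest p were L1CAM, a cell adhesion molecule that binds RGD-dependent integrins (0.21 ± 0.06), the basement membrane linker NID1 (−0.24 ± 0.08), the fibrillin FBN1 (−0.19 ± 0.06), the laminin chain LAMB1 (−0.22 ± 0.07) and TGFB1, whose latent form is bound by integrins with the alpha V chain (−0.20 ± 0.07), with adjusted p-values of 0.166 to 0.196. With the trended robust prior 4 of the 33 passed as lower (background: 2.15% of all genes). After cyclic loess 20 of 33 lay below 0 (background: 46.3%), and with that prior 1 passed as higher (background: 0.298%) and 0 as lower (background: 0.379%).

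The sequences upstream of ITGA2, ITGB8 and ILK are shown because these 3 members lay lower without overlap, at an unadjusted p under 0.05 and above the median signal, and are in the RefSeq promoter table of GRCh38.p14. That table matched 26 of the 35 members. Each window is the 250 bases before the annotated gene start, and capitals mark GC boxes (GGGCGG on either strand, a binding motif of SP1-type factors) and ETS cores (CCGGAA on either strand, bound by the ETS factors common in endothelium). ITGA2 lies at chr5:52989102-52989351 on the plus strand, ITGB8 at chr7:20330650-20330899 on the plus strand and ILK at chr11:6603524-6603773 on the plus strand.
ITGA2: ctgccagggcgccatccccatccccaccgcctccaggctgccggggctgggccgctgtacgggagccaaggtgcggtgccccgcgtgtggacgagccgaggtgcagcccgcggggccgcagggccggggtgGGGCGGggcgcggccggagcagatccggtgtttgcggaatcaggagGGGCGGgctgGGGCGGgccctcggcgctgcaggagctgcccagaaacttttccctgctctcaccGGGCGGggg
ITGB8: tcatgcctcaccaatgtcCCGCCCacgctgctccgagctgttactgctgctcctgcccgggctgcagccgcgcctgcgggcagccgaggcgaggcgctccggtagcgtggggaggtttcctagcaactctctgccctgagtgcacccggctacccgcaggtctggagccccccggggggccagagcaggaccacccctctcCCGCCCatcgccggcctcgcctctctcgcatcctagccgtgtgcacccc
ILK: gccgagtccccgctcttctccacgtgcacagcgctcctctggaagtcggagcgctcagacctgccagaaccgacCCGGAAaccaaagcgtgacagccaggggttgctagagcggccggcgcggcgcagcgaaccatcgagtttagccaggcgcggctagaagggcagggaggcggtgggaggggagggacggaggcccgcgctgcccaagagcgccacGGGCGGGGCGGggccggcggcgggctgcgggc
The ITGA2 window holds 4 GC boxes and no ETS core, that of ITGB8 holds 2 GC boxes, and that of ILK holds 1 ETS core and 2 GC boxes that overlap. A GC box was found upstream of 16 of the 26 members (61.5%) and of 46.2% of the 27305 genes in the table, and an ETS core upstream of 5 of 26 (19.2%) and 17.2%. The TEAD motif GGAATG was found for 5 of 26 members (19.2%) against 14.3% of genes, and the AP-1 motif TGANTCA for 2 (7.69%) against 8.06%. A CArG box, the SRF motif of many cytoskeletal genes, was found for 1 (3.85%) against 1.44%. That 1 member was ITGB6, which was not analysed on the arrays. All motifs were searched on both strands, and a match is a description of the sequence only.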

How the data were processed

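Total RNA was hybridised to Affymetrix U133 Plus 2.0 arrays, and the deposited table holds log2 values of 54675 probe sets made with RMA, affy and limma per the submitters' processing notes. Their versions, and whether probe sets were filtered, were not given in the sources used here. In RMA, background correction and quantile normalization across arrays come before the summary of probes, and array medians were 6.14 to 6.23. The number of arrays limits the precision. The 62 control probe sets were left out, leaving 54613, of which 41091 had 1 gene symbol, 1801 several and 11721 were unnamed here. Symbols came from the platform annotation, which can be old, and were updated by Entrez ID through RefSeq (41037 matched). A gene was its brightest probe set by the mean of 6 arrays. Differences were fitted with limma 3.58.1 in R 4.3.3 (lmFit, eBayes, constant prior), two-sided, with Benjamini-Hochberg adjustment over all genes or all probe sets, on both groups without the replicate number. The fit was tested on simulated data. Values on every array are given for members at or above the median signal or at an unadjusted p under 0.05, and other genes are named by the 5 of smallest p in a list. The members and lists were chosen with earlier results of these data known. Alternatives were other priors, normalizations, probe set rules, a signal filter, thresholds, array weights, a block for the replicate number and each array left out.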

Additional observations from a re-analysis of the deposited data

How the results depend on the processing

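The number of arrays and, for dim members, the low signal over background limit these results, and where a value moved the cause was not tested. Of 599 values of single members under the alternatives, 556 kept their direction and their side of the threshold, 40 changed sign and 3 passed that had not, with 0 members passing outside the trended priors. The fits without 1 array under the trended robust prior are not among the 599, and members passed 10 times in those 6 fits. The trended robust prior called 426 genes lower and 115 higher, with 1 member, 4 other focal adhesion proteins and 4 ligands lower, and the trend alone 415 and 107, with 2 members, 4 and 4. Leaving out 1 array with the trended robust prior gave 38 to 1118 genes lower and 2 to 350 higher, 0 to 6 members passing as lower, and 8 to 17 members lower and 0 to 1 higher at an unadjusted p under 0.05, with medians of −0.13 to −0.079. With the constant prior the same step gave 0 to 1 members higher at that p and 0 to 1 of the leukocyte subunits ITGAL, ITGAM, ITGAX and ITGAD below 0, and the members' median was again −0.13 to −0.079. In it, ITGA9 ranged from −0.097 to 0.023, ITGAV from −0.022 to 0.015, ITGB1 from −0.011 to 0.025, ITGB7 from −0.096 to 0.0082, PARVB from −0.11 to 0.025 and SRC from −0.041 to 0.033. With arrays centred on their medians 31 genes were lower and 1 higher, 0 members were higher at that p, 1 leukocyte subunit lay below 0, the members' median was −0.16, and ITGA10 (−0.019), ITGAV (−0.048), ITGB1 (−0.047) and SRC (−0.045) changed sign, as SRC did with array weights (−0.0042). With repeated quantile normalization 6 members were lower at that p, the median was −0.037, and ITGAE (0.028) and PARVB (0.041) changed sign. With cyclic loess 6 were lower, the median was −0.046, 1 leukocyte subunit lay below 0, and ITGAE (0.025), VCL (0.0034) and PARVB (0.039) changed sign, all of which held with the trended robust prior except that 9 members were lower and 3 higher at that p, with 75 genes passing as lower, 59 as higher and 1 ligand as higher. Among genes at or above the median signal 254 genes passed as lower and 55 as higher, with 3 other focal adhesion proteins lower, and 0 members were higher at that p. With the mean of all probe sets 6 members were lower at that p, the median was −0.055, and ITGA4 (−0.071), ITGA9 (0.070), ITGB1 (−0.069) and VCL (0.033) changed sign. Leaving out the _s_at and _x_at probe sets, 6 were lower and 0 higher, the median was −0.058, 1 leukocyte subunit lay below 0, and ITGB1 (−0.10) and ITGB3 (0.09) changed sign. With the probe set of highest variance 2 members were higher at that p, and ITGA4 (−0.22), ITGA9 (0.29), ITGB1 (−0.27), ITGB8 (0.19), VCL (0.14), PTK2 (0.10) and SRC (−0.19) changed sign.

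With the replicate number as a block 11 members were lower at an unadjusted p under 0.05, against 10 without it, 25 lay below 0 and 0 passed. The deviations of same-numbered samples correlated at 0.04, 0.18 and −0.02 over all genes, and not every sample correlated best with its own number. With 3 arrays per group, such values cannot show whether same-numbered samples shared a culture. The block changed no call.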

Other observations

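The less bright probe sets of SRC, a kinase at the core of focal adhesion signalling, went in both directions while its brightest was near 0. Those ranked 3 and 7 of 7 by mean signal differed by 0.30 ± 0.07 and 0.29 ± 0.06 without overlap between the groups. They lay at percentiles 55.5 and 14.1 of all probe sets, so the second was dim. The name of the first ends in _x_at, which marks possible shared reads. Those ranked 4 and 5, at percentiles 35.8 and 32.4, differed by −0.16 ± 0.11 and −0.19 ± 0.14. The p-values of the higher pair, adjusted over all 54613 probe sets with limma, were 0.22 each. ITGB4, the hemidesmosome chain, showed the same spread, with 0.22 ± 0.09 at the probe set of rank 3 and −0.34 ± 0.10 at that of rank 5, both without overlap (limma adjusted p = 0.291 and 0.233). These ITGB4 probe sets were dim too, at percentiles 37.6 and 26.2 of all probe sets. Which transcripts these probe sets read was not analysed here.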
